A study of Avena sativa with 108 samples.

Results

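Embryos of oat (Avena sativa) grains that had germinated for 24 h were compared with embryos of grains that had germinated for 6 h. The comparison took every embryo library of those times, which made 12 of the 108 libraries of the series, 6 at 24 h and 6 at 6 h. At each time 3 libraries came from the cultivar CDC Morrison and 3 from AC Morgan. The grains of both times and both cultivars stood on moist sterile filter paper under long days, and no hormone or other agent was given. The series follows oat grain through development and germination, and the germination libraries cover embryo and endosperm at 0, 3, 6, 24 and 48 h. The labels name the tissue as embryo and do not say whether the scutellum, the absorptive organ next to the endosperm, was kept with the axis. They also do not say whether replicates came from separate lots of grain, so p-values measure the spread between these libraries, which may be technical.

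The cereal embryo leaves the dry state with stored messenger RNAs for protective proteins, and within a day it changes to a growing organ. Water uptake first restores respiration and translation, the radicle and coleoptile then extend, and cells that had stopped before replication enter DNA synthesis and mitosis. During this time gibberellin from the embryo opposes abscisic acid, and hydrolases made in the scutellum and aleurone release starch, protein and lipid stores for the seedling.

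Estimated read counts summed to between 5014055 and 23019408 per library at 24 h, and between 6149400 and 28994797 at 6 h. The first principal component of the log2 values, with 47.6% of the variance, separated the times, the second, with 24.6%, the cultivars, and the third, with 10.6%, set CDC Morrison replicate 1 apart. At both times this replicate differed from its own group by 50.6 to 73.3 times the variance that counting gives, against 2.44 to 12.96 times in all other pairs of replicates. AC Morgan replicate 2 at 6 h also stood apart. Over 56 genes with a mean of at least 20 CPM (counts relative to the TMM-scaled total of the library) at 24 h and a median under 0.2 CPM at 6 h, this library held a median of 6.18% of the 24 h level, against medians of 0% to 0.182% in the other 6 h libraries. Counts of a list or family that moved by over 1.5 times without CDC Morrison replicate 1, and named genes whose call changed without it, are given with and without this replicate. Transcripts of endosperm storage proteins, the marker list of the other large tissue of the grain, summed, on a scale set over both tissues, to 19.9 to 203 CPM in embryo libraries at 24 h and 178 to 1832 CPM at 6 h. In endosperm libraries they summed to 7280.3 to 24068 CPM at 24 h and 38433 to 66055 CPM at 6 h. The list of embryo and meristem transcription factors summed to 627 to 1219.9 CPM in embryo and 709 to 1295 CPM in endosperm at 24 h, so that its sum did not separate the tissues.

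Of 57771 genes tested, 30014 (52.0%) differed between 24 h and 6 h at an adjusted p under 0.05 by the quasi-likelihood test of edgeR, Benjamini-Hochberg adjusted and with cultivar as a block. Transcripts of 15984 genes (27.7%) rose and those of 14030 (24.3%) fell. With a change of at least 2-fold, 11578 (20.0%) rose and 8692 (15.0%) fell. In 8486 genes (14.7%) all 6 libraries at 24 h lay above all 6 at 6 h, and in 6207 (10.7%) all lay below. The median log2 fold change over all genes tested was 0.03. Without CDC Morrison replicate 1 the calls were 17272 higher and 16054 lower. These shares are the background for the gene lists below, each a set of genes chosen by the protein description that the deposited table gives. Gene names are those of the best-matching UniProt protein, often from rice, barley, wheat, maize or Arabidopsis, followed by the end of the oat gene identifier, in which the digit and letter give the chromosome and the subgenome. Bulk libraries cannot separate fewer cells of a type from less RNA per cell, and this holds for every value below. For each named gene the lowest, the median and the highest of the 6 libraries are given in CPM. Genes named as the 12 largest rises and 12 largest falls had to be called and free of overlap between the times. For these genes the call and the lack of overlap are conditions of naming and add no support. Genes named as rising or falling members of a list were also chosen among called genes. Changes are log2 fold changes of 24 h over 6 h ± a standard error worked back from the test. It is the size of the change divided by the square root of the quasi-likelihood F statistic, and is unreliable where a group is all 0.

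**Figure D1:**
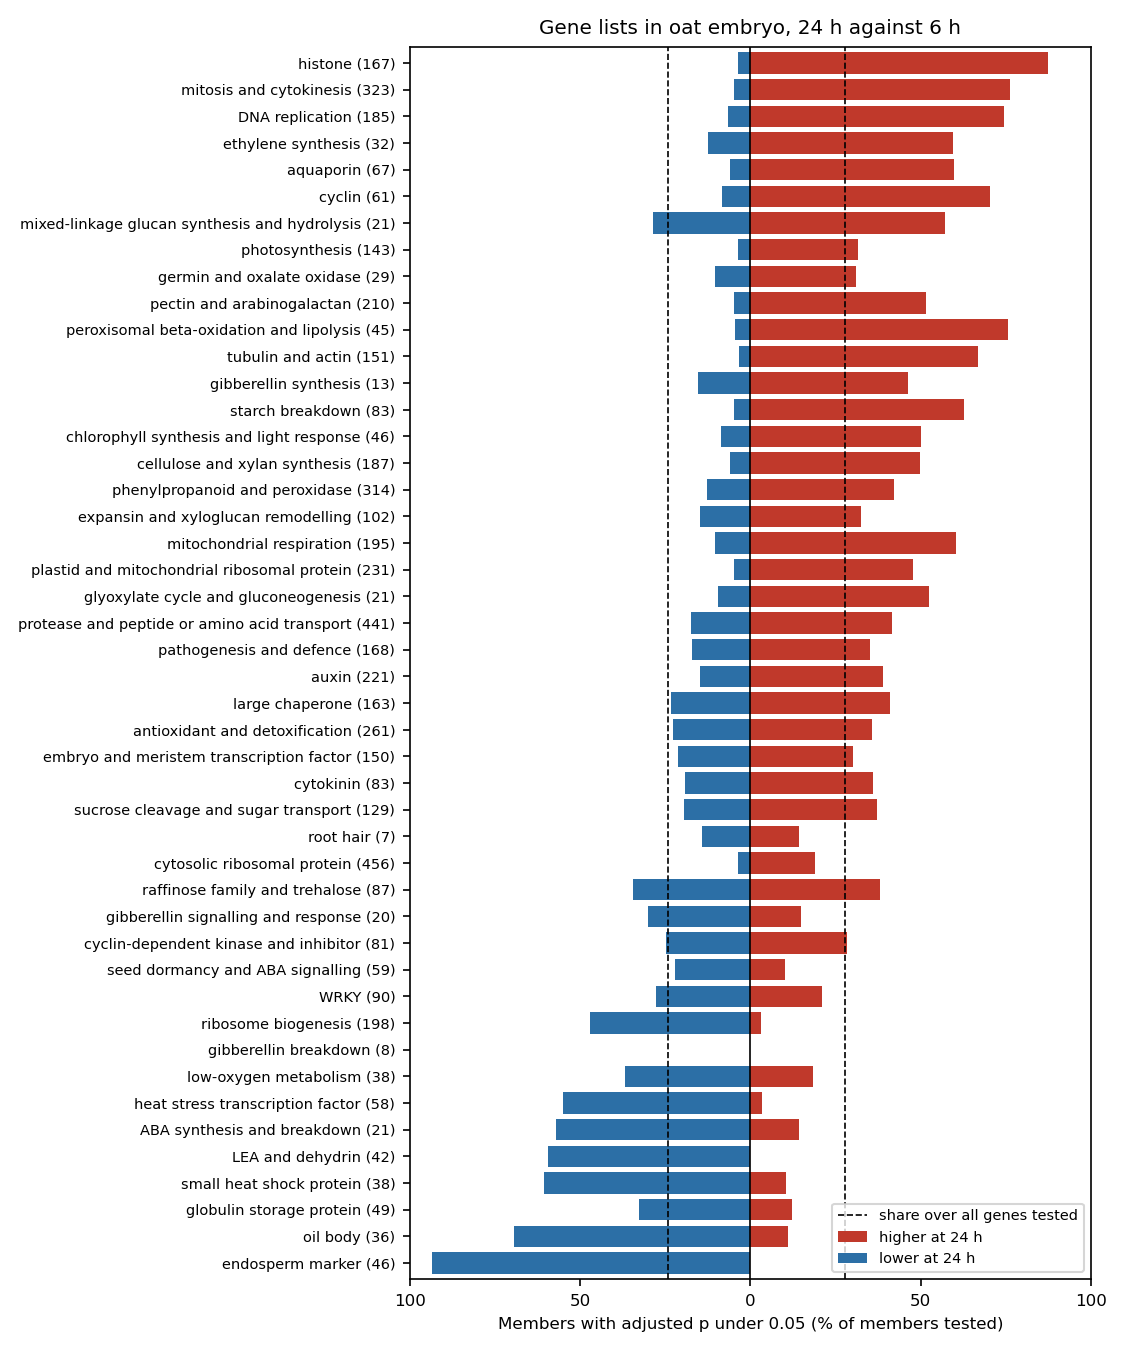
Percent of the genes tested in each list that were called higher (right) or lower (left) at 24 h than at 6 h at an adjusted p under 0.05, with broken lines at the background of all genes tested, 27.7% higher and 24.3% lower. The histone list reaches furthest to the right and the endosperm marker list furthest to the left.

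Transcripts of the dry-seed programme fell. Of 42 LEA and dehydrin genes tested, which code for hydrophilic proteins that protect cells during drying, 0 rose and 25 fell, with a median log2 fold change of -2.12. None was higher at an unadjusted p under 0.05 in edgeR or by DESeq2, whereas limma called 1, and 3 were higher and 29 lower without CDC Morrison replicate 1. EM2_1Dg0000996, an Em protein, had 0.982, 1.95 and 11.5 CPM at 24 h, against 153, 337 and 491 CPM at 6 h. The libraries did not overlap, and the change was -6.54 ± 0.58, adjusted p = 1.87e-06. LEA41_3Dg0000562 had 0.0517, 7.16 and 13.4 CPM at 24 h, against 41.1, 376 and 935 CPM at 6 h, again without overlap (-6.21 ± 0.63, adjusted p = 5.08e-06). The LEA gene with the highest mean among those not called, LEA2R_1Dg0002174, had 0.465, 37.1 and 56.6 CPM at 24 h, against 2.7, 73.8 and 128 CPM at 6 h, and its libraries overlapped (-0.88 ± 0.68, adjusted p = 0.294). Without CDC Morrison replicate 1 it was called, at -0.92 (adjusted p = 0.00199).

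Other genes known from maturing and dry seeds fell by a similar order. GRDH_3Dg0002437, which matches a rice glucose and ribitol dehydrogenase that accumulates in mature embryos, had 0.103, 0.773 and 2.16 CPM at 24 h, against 20.8, 187 and 358 CPM at 6 h. All libraries at 24 h lay below all at 6 h, and the change was -7.50 ± 0.66, adjusted p = 1.75e-06. MT21A_1Cg0001463, a metallothionein that binds metal ions, had 0.2, 0.5 and 1.22 CPM at 24 h, against 34.9, 143 and 435 CPM at 6 h, without overlap (-7.61 ± 0.50, adjusted p = 2.74e-07). Other metallothionein genes moved the other way, since 11 of 17 tested rose and 4 fell. Of 9 defensin genes, which code for small antimicrobial peptides, 7 fell and 1 rose. DEF1_7Cg0002023 had 0.155, 0.873 and 1.5 CPM at 24 h, against 24, 143 and 258 CPM at 6 h, and the 24 h libraries all lay below (-7.18 ± 0.43, adjusted p = 1.46e-07). DEF1_7Ag0002548 had 0.931, 5.08 and 9.99 CPM at 24 h, against 37.4, 315 and 679 CPM at 6 h, with the same order (-5.69 ± 0.59, adjusted p = 6.19e-06). The families of genes counted here and below within the lists, such as the metallothioneins and defensins, were picked after the values had been seen, and their counts are descriptions.

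All 9 oleosin genes fell, with a median log2 fold change of -3.55. Oleosins coat the oil bodies in which the embryo stores lipid. OLE16_2Ag0001719 had 0.465, 1.07 and 2.66 CPM at 24 h, against 52.7, 178 and 421 CPM at 6 h, without overlap (-7.02 ± 0.40, adjusted p = 1.17e-07), and OLEO3_4Ag0001222, the gene of this list with the highest mean among those that fell, had 0.31, 22.6 and 51.8 CPM at 24 h, against 13.7, 265 and 587 CPM at 6 h, where the highest library at 24 h lay above the lowest at 6 h (-3.55 ± 0.73, adjusted p = 0.00122). Over the oil body list 25 of 36 genes fell and 4 rose. One that rose was PXG5_2Dg0000162, a peroxygenase of the caleosin family, with 18.8, 24 and 29.8 CPM at 24 h, against 1.6, 2.96 and 3.4 CPM at 6 h and no overlap (3.17 ± 0.16, adjusted p = 5.86e-08).

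Heat stress transcription factors fell more often than they rose, at 32 against 2 of 58 tested. The largest fall of all genes that met the naming rule, which asks for a mean of at least 20 CPM and no overlap, was that of HSFA3_4Dg0000235, with 0, 0.119 and 0.4 CPM at 24 h, against 15.5, 48.3 and 82.2 CPM at 6 h (-8.55 ± 0.41, adjusted p = 4.73e-08). HSFA3_3Dg0000394 had 0, 0.126 and 0.249 CPM at 24 h, against 14.7, 49.6 and 83.8 CPM at 6 h (-8.33 ± 0.46, adjusted p = 9.18e-08), so that both genes were near 0 in every 24 h library. In Arabidopsis HSFA3 acts in heat and drought responses. HSFA1_4Ag0002193, of the class that starts the heat response, also fell without overlap, with 7.5, 14.7 and 16.2 CPM at 24 h, against 63.1, 127 and 167 CPM at 6 h (-3.11 ± 0.21, adjusted p = 3.34e-07). HSFA5_5Dg0001183 had 5.84, 9.43 and 11.9 CPM at 24 h, against 5.21, 11.3 and 15.5 CPM at 6 h, which overlapped (-0.15 ± 0.24, adjusted p = 0.634).

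Small heat shock proteins, which hold unfolded proteins and are stored in dry seeds, fell in 23 and rose in 4 of 38 genes. The count that rose was 8 without CDC Morrison replicate 1 and 1 without replicate 2 or 3 of CDC Morrison or replicate 2 of AC Morgan at 24 h. HS181_7Ag0001139, a cytosolic class protein, had 0.0517, 0.343 and 0.653 CPM at 24 h, against 13.2, 57.2 and 113 CPM at 6 h, and every 24 h library was below 1 CPM (-6.97 ± 0.58, adjusted p = 1.17e-06). HS17A_1Dg0002796 had 2.12, 8.25 and 18.4 CPM at 24 h, against 23.6, 85 and 104 CPM at 6 h, without overlap (-2.96 ± 0.50, adjusted p = 3.04e-04). The opposite direction was found for HS24M_2Ag0000806, a mitochondrial member, with 3.15, 5.88 and 11 CPM at 24 h, against 0.366, 0.798 and 1.62 CPM at 6 h (2.88 ± 0.43, adjusted p = 1.08e-04). Of 163 larger chaperone genes 67 (41.1%) rose and 38 (23.3%) fell, against 27.7% and 24.3% over all genes tested. ENPL_7Dg0002716, an endoplasmin that folds proteins in the endoplasmic reticulum, had 937, 1313 and 2015 CPM at 24 h, against 66.2, 162 and 472 CPM at 6 h, without overlap (2.83 ± 0.30, adjusted p = 6.58e-06). HSP7C_5Dg0000030, an HSP70, had 0, 0.183 and 0.997 CPM at 24 h, against 13.4, 73.6 and 106 CPM at 6 h, and the order was the reverse (-7.22 ± 0.57, adjusted p = 8.04e-07). Of 34 ClpB genes, whose proteins take aggregates apart, 18 fell and 1 rose, whereas of 45 chaperonin genes 28 rose and 4 fell.

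Endosperm markers and part of the storage globulins were lower at 24 h. Of 46 endosperm marker genes 43 fell and 0 rose, and their sum, scaled over the embryo libraries alone, was 23, 28.6 and 242 CPM at 24 h, against 215, 739 and 2217 CPM at 6 h. None was higher by DESeq2 or limma either, nor at an unadjusted p under 0.05 in edgeR. AVE3_Ung0000156, an avenin and thus a prolamin of the oat endosperm, had 0.332, 1.33 and 42.4 CPM at 24 h, against 28.6, 76.6 and 233 CPM at 6 h, where the groups overlapped (-3.88 ± 1.21, adjusted p = 0.0156). Of 49 globulin genes 16 fell (42 without CDC Morrison replicate 1) and 6 rose. The 63 kDa type fell in all 3 genes. GLB63_4Dg0001463 had 7.08, 12 and 36.2 CPM at 24 h, against 86.3, 1184 and 2029.8 CPM at 6 h, without overlap (-6.04 ± 0.71, adjusted p = 1.62e-05), and CUCIN_4Ag0001758, a cupincin of the vicilin type, had 1.81, 58.3 and 80.7 CPM at 24 h, against 84, 1599 and 2447 CPM at 6 h (-4.86 ± 0.73, adjusted p = 1.10e-04). Of 34 12S globulin genes, the main storage protein class of oat, 6 fell, a share under the background, and 2 rose. Without CDC Morrison replicate 1 32 fell and 1 rose. Leaving out AC Morgan replicate 1 at 24 h instead gave 1 that fell. For SSG2_3Dg0002708 of this class the values were 0.214, 3.05 and 43.9 CPM at 24 h, against 17.2, 75.2 and 331 CPM at 6 h, with overlap (-3.52 ± 1.41, adjusted p = 0.0501), and without that replicate the change was -5.47 (adjusted p = 1.48e-04). The part of endosperm carried over at dissection in these storage protein values was not tested.

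Genes of DNA synthesis and chromatin rose. Histones, the proteins on which DNA is wound, gave the highest share of all lists. Of 167 genes tested, 146 rose and 6 fell, with a median log2 fold change of 4.91, and their summed level was 1756, 9109 and 12233 CPM at 24 h, against 423, 1206 and 1488 CPM at 6 h. The sums did not overlap, and the lowest at 24 h belonged to CDC Morrison replicate 1. All 28 genes of the replication-linked histone H3.2 rose. H2A1_1Ag0003656 had 2.17, 33.6 and 50.7 CPM at 24 h, against 0, 0 and 1.17 CPM at 6 h, without overlap (7.34 ± 0.87, adjusted p = 1.83e-05), and H2AV2_1Cg0000961, an H2A variant, had 11.6, 65.4 and 85 CPM at 24 h, against 0, 0.0284 and 2.49 CPM at 6 h (7.16 ± 0.88, adjusted p = 2.24e-05).

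The replacement histone H3.3, which is also laid down outside replication, rose in 3 of 8 genes, and the other 5 were not called, although without CDC Morrison replicate 1 1 fell. H33_2Ag0001272 had 69.2, 173 and 248 CPM at 24 h, against 20.4, 42.3 and 61.4 CPM at 6 h, without overlap (2.05 ± 0.29, adjusted p = 6.95e-05), whereas H33_7Dg0003467 had 26.9, 115 and 173 CPM at 24 h, against 29.2, 91.6 and 127 CPM at 6 h, with overlap (0.37 ± 0.39, adjusted p = 0.446). Among the histones that fell were H2B2_6Cg0000158, with 6.86, 11 and 15.8 CPM at 24 h, against 33.1, 40.4 and 61.6 CPM at 6 h and no overlap (-1.94 ± 0.22, adjusted p = 1.00e-05), and H1_7Dg0003469, a linker histone, with 0, 0.578 and 1.08 CPM at 24 h, against 0.869, 28.1 and 76.6 CPM at 6 h (-5.22 ± 0.80, adjusted p = 1.30e-04). The last pair of groups overlapped, since the lowest 6 h library was also near 1 CPM.

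Replication enzymes followed the histones, with 138 higher and 12 lower of 185 genes. The MCM2 to MCM7 genes encode the helicase that opens replication origins, and 18 of 20 rose and 1 fell. MCM2_4Cg0002472 had 359, 382 and 388 CPM at 24 h, against 4.86, 23.6 and 58.6 CPM at 6 h, without overlap (4.18 ± 0.49, adjusted p = 1.65e-05). RIR1_5Cg0003072, the large subunit of ribonucleotide reductase that makes deoxyribonucleotides, had 315, 318 and 333 CPM at 24 h, against 4.33, 16.6 and 32.6 CPM at 6 h, again without overlap (4.45 ± 0.37, adjusted p = 1.18e-06), and all 14 genes of this enzyme rose. The large subunit of replication protein A, which binds single-stranded DNA in replication and repair, was divided, with 12 genes rising and 10 falling of 29. RFA1A_6Ag0001783 had 8.79, 11.8 and 13.6 CPM at 24 h, against 48.5, 56.5 and 84.4 CPM at 6 h, and all 24 h libraries lay below (-2.39 ± 0.14, adjusted p = 1.43e-07).

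DNA methyltransferases that maintain methylation on new DNA gave 2 of the largest rises, although over the CMT and MET types 14 genes rose and 7 fell of 29. CMT1_7Dg0000847, a chromomethylase, had 169, 223 and 241 CPM at 24 h, against 0.32, 0.764 and 7.37 CPM at 6 h (6.97 ± 0.65, adjusted p = 2.49e-06), and CMT3_7Ag0001862 had 175, 202 and 225 CPM at 24 h, against 0, 0.477 and 8.22 CPM at 6 h (6.95 ± 0.87, adjusted p = 2.75e-05). In both the highest 6 h value was that of AC Morgan replicate 2, and without this library the log2 fold changes were 8.16 and 8.61. HMGB6_6Ag0000507, a high mobility group protein of chromatin, had 16.8, 47.9 and 68.3 CPM at 24 h, against 0, 0.107 and 1.75 CPM at 6 h, without overlap (7.01 ± 0.73, adjusted p = 6.20e-06).

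**Figure D2:**
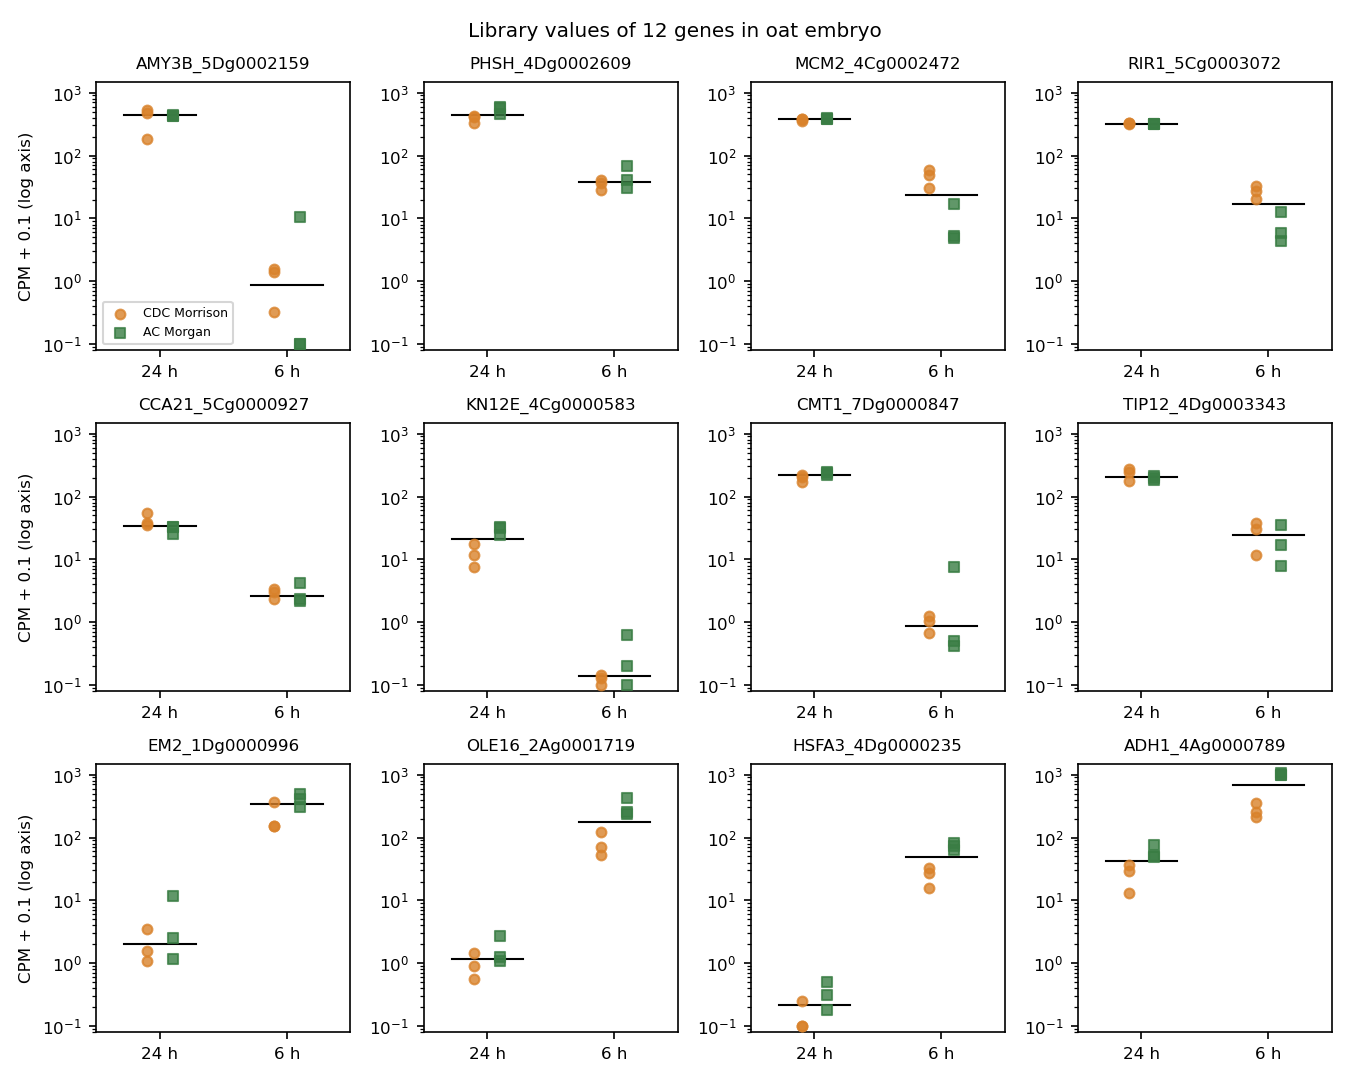
Level of selected genes in CPM, on a log axis with 0.1 added, in each embryo library at 24 h (left) and 6 h (right), with CDC Morrison as circles and AC Morgan as squares and lines at the median of 6 libraries. The 24 h libraries of the replication, cell cycle, amylase, phosphorylase and TIP12 genes lie above the 6 h libraries, and those of the EM2, OLE16, HSFA3 and ADH1 genes below.

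Cyclins rose with replication, and other cell cycle genes were divided. Of 61 cyclin genes 43 rose and 5 fell. A-type cyclins, which act in S phase and G2, rose in 14 of 15, the mitotic B-type in 16 of 24, and D-type cyclins, which link growth signals to the cycle, in 13 of 22. CCA21_5Cg0000927 had 25.6, 33.9 and 54.4 CPM at 24 h, against 2.13, 2.57 and 4.19 CPM at 6 h, without overlap (3.64 ± 0.23, adjusted p = 1.93e-07), and CCD31_6Ag0000746 had 34.9, 42.7 and 49.4 CPM at 24 h, against 9.29, 14.4 and 15.6 CPM at 6 h (1.63 ± 0.13, adjusted p = 9.83e-07). CCB15_1Ag0002862, a B-type cyclin, ran the other way, with 4.08, 9.44 and 12.2 CPM at 24 h, against 11.6, 22.3 and 36.9 CPM at 6 h, and its groups overlapped (-1.28 ± 0.32, adjusted p = 0.00418). The list of cyclin-dependent kinases and their inhibitors lay close to the background, with 23 higher and 20 lower of 81. Within it the plant-specific kinase CDKB, which is made in G2 and mitosis, rose in all 6 genes, and CKB21_5Cg0000065 had 9.1, 35.2 and 42.7 CPM at 24 h, against 3.48, 5.58 and 6.82 CPM at 6 h (2.57 ± 0.34, adjusted p = 3.98e-05). Of 10 retinoblastoma-related genes, which code for repressors of S-phase entry, 3 rose and 1 fell, and 6 were not called. The share that rose was close to the 27.7% over all genes tested, and the median log2 fold change was 0.31. Without CDC Morrison replicate 1 the counts were 4 and 2. RBR1_5Cg0000179 had 33.3, 36.5 and 39.8 CPM at 24 h, against 9.72, 16.7 and 22.5 CPM at 6 h, also without overlap (1.17 ± 0.17, adjusted p = 7.65e-05).

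Spindle and cell plate genes rose, at 246 of 323, with 16 that fell (25 without CDC Morrison replicate 1) and a median log2 fold change of 2.23. KIN-12 kinesins of the phragmoplast, the microtubule array that builds the new wall, rose in 16 of 17 genes. KN12E_4Cg0000583 had 7.46, 21.1 and 33.2 CPM at 24 h, against 0, 0.0383 and 0.53 CPM at 6 h, without overlap (7.25 ± 0.48, adjusted p = 2.75e-07). MA653_3Dg0001437, a microtubule-bundling protein of the same structure in Arabidopsis, had 31.9, 37.3 and 44.2 CPM at 24 h, against 0, 0 and 0.796 CPM at 6 h, and at 6 h 4 of the 6 libraries had no read of it (7.69 ± 0.62, adjusted p = 8.99e-07). The kinesin KN7D_4Ag0001265 went down, with 16.4, 22 and 51.9 CPM at 24 h, against 31.1, 57.3 and 78.9 CPM at 6 h and overlapping groups (-1.02 ± 0.31, adjusted p = 0.0141). Tubulin, actin and profilin genes of the cytoskeleton rose in 101 and fell in 5 of 151. TBA1_4Dg0001706, an alpha-tubulin, had 268, 1094 and 1157 CPM at 24 h, against 107, 158 and 232 CPM at 6 h, without overlap, and the low 24 h value was that of CDC Morrison replicate 1 (2.56 ± 0.35, adjusted p = 5.68e-05).

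Starch breakdown genes rose in 52 and fell in 4 of 83 genes tested. Alpha-amylase, the endohydrolase of starch granules, rose in 15 of 19. AMY3B_5Dg0002159 had 182, 434 and 533 CPM at 24 h, against 0, 0.767 and 10.3 CPM at 6 h, without overlap (7.66 ± 0.97, adjusted p = 2.87e-05). Its highest 6 h value was again that of AC Morgan replicate 2, and the log2 fold change was 9.32 without it. AMY2_6Cg0000674, of another amylase type, had 179, 766 and 878 CPM at 24 h, against 5.37, 20.3 and 94.7 CPM at 6 h (4.58 ± 0.69, adjusted p = 1.24e-04). The alpha-glucan phosphorylase PHSH_4Dg0002609, which releases glucose 1-phosphate, had 330.2, 437 and 597 CPM at 24 h, against 28, 38.3 and 68.5 CPM at 6 h, without overlap (3.50 ± 0.21, adjusted p = 1.67e-07). Beta-amylases, which release maltose, differed from these. Of 18 genes 3 rose and 1 fell (5 and 3 without CDC Morrison replicate 1), and BAMY2_1Dg0003384 had 3.1, 32.5 and 48.6 CPM at 24 h, against 11.8, 99.7 and 195 CPM at 6 h, with overlap (-1.37 ± 0.54, adjusted p = 0.0478). This last call was lost in 7 of the 12 fits that left out 1 library, all but 1 of them without an AC Morgan library and the other without CDC Morrison replicate 2 at 6 h, with changes of -1.83 to -1.20 over the 12 fits.

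Lipid breakdown rose as oleosin transcripts fell. In the peroxisomal list 34 of 45 genes rose and 2 fell (4 without CDC Morrison replicate 1), and all 11 genes of the multifunctional protein, which carries out the middle steps of fatty acid oxidation, rose. MFP_6Cg0002380 had 586, 677 and 939 CPM at 24 h, against 136, 192 and 225 CPM at 6 h, without overlap (1.89 ± 0.15, adjusted p = 8.95e-07), and the thiolase THIK2_6Cg0001068, of the last step, had 360.4, 448 and 574 CPM at 24 h, against 207, 227 and 341 CPM at 6 h (0.88 ± 0.16, adjusted p = 6.16e-04). Of 5 genes for the oil body lipase SDP1, 3 rose and 2 fell. SDP1_3Dg0001640 had 42, 50.3 and 65.1 CPM at 24 h, against 54.2, 123 and 148 CPM at 6 h, with overlap (-1.07 ± 0.22, adjusted p = 0.0012). Isocitrate lyase, which opens the glyoxylate cycle from acetate units to sugar, rose in all 3 genes. ACEA_2Cg0000666 had 373, 588 and 758 CPM at 24 h, against 56.4, 109 and 172 CPM at 6 h (2.32 ± 0.28, adjusted p = 1.84e-05), without overlap. Malate synthase, its partner enzyme, rose in 1 of 3 genes, or 2 without that replicate. PCKA_5Ag0000315, phosphoenolpyruvate carboxykinase of gluconeogenesis, had 30.8, 234 and 268 CPM at 24 h, against 38.1, 181 and 194 CPM at 6 h, which overlapped (0.47 ± 0.46, adjusted p = 0.402), and without CDC Morrison replicate 1 it was called at 0.52 (adjusted p = 0.0128).

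Raffinose and trehalose genes were divided, with 33 higher and 30 lower of 87. The 2 raffinose synthase-type genes with the highest means among those that fell were RFS2_1Dg0000812, with 9.2, 61.9 and 115 CPM at 24 h, against 154, 617 and 717 CPM at 6 h (-3.31 ± 0.45, adjusted p = 5.68e-05), and RFS1_7Ag0001471, with 125, 144 and 208 CPM at 24 h, against 235, 596 and 1199 CPM at 6 h (-1.78 ± 0.30, adjusted p = 2.70e-04). Raffinose is a sugar of dry seeds, and neither gene's groups overlapped. TPS1_1Ag0001750, a synthase of the sugar signal trehalose 6-phosphate, had 79.1, 81.2 and 94.6 CPM at 24 h, against 17.6, 41.3 and 73.3 CPM at 6 h, in the other direction and without overlap (1.19 ± 0.26, adjusted p = 0.00199). Of 441 genes for proteases and for peptide or amino acid transport, 183 rose and 77 fell. The cathepsin B protease CATB3_4Ag0001397 had 826, 898 and 1454 CPM at 24 h, against 204, 286 and 536 CPM at 6 h, without overlap (1.68 ± 0.19, adjusted p = 1.24e-05). The vacuolar processing enzyme VPE1_6Cg0003323, known for the cutting of seed globulin precursors, had 98, 115 and 169.7 CPM at 24 h, against 166, 467 and 828 CPM at 6 h, with a slight overlap (-1.80 ± 0.34, adjusted p = 6.41e-04). For RFS1, TPS1 and VPE1 the change differed between the cultivars, as given below.

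Ethanol fermentation genes fell while respiratory genes rose. The whole low-oxygen list was divided, with 7 higher and 14 lower of 38, and 11 were higher without CDC Morrison replicate 1 at 24 h. All called genes among 15 for alcohol dehydrogenase 1 and pyruvate decarboxylase, which make ethanol when oxygen is short, were lower, at 11. ADH1_4Ag0000789 had 13.2, 42.4 and 77.3 CPM at 24 h, against 215, 673 and 1076 CPM at 6 h, without overlap (-3.75 ± 0.28, adjusted p = 5.76e-07), and PDC2_5Ag0000506 had 2.69, 47.6 and 68.1 CPM at 24 h, against 44.6, 222 and 329 CPM at 6 h, with overlap (-2.45 ± 0.59, adjusted p = 0.00364). Of 195 genes of mitochondrial respiration 118 rose and 20 fell. ATPBM_1Dg0001974, the beta subunit of mitochondrial ATP synthase, had 348, 471 and 627 CPM at 24 h, against 120.4, 162 and 195 CPM at 6 h, without overlap (1.65 ± 0.17, adjusted p = 6.91e-06). The flavoprotein of succinate dehydrogenase was an exception, with 3 genes that rose and 3 that fell of 9. SDHA_2Dg0003280 had 32.8, 57.7 and 79.1 CPM at 24 h, against 102, 166 and 188 CPM at 6 h, without overlap (-1.42 ± 0.23, adjusted p = 1.97e-04).

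Ribosome assembly genes fell more often than they rose. Of 198 genes 93 (47.0%) fell and 6 rose (12 without CDC Morrison replicate 1), with a median log2 fold change of -0.39. PESC_7Cg0001069, a pescadillo protein that processes ribosomal RNA, had 175, 274 and 298 CPM at 24 h, against 371, 834 and 991 CPM at 6 h, without overlap (-1.55 ± 0.21, adjusted p = 4.36e-05). Of 10 pescadillo genes 4 fell, with a median change of -0.32 and a lowest of -1.55. Genes for cytosolic ribosomal proteins were mostly not called, at 86 higher (18.9%) and 16 lower (3.5%) of 456. Both shares lay under the 27.7% and 24.3% over all genes tested, and the median log2 fold change was 0.24. The count of those higher was 52 without CDC Morrison replicate 2 at 24 h, 55 without CDC Morrison replicate 3 at 24 h and 57 when replicate 2 of AC Morgan at 24 h was left out. Without CDC Morrison replicate 1 the counts were 182 higher and 37 lower. RS8_1Dg0000864 had 206, 709 and 1223 CPM at 24 h, against 404, 1059 and 1608 CPM at 6 h, with overlap (-0.43 ± 0.37, adjusted p = 0.353). RL402_6Cg0000286, a ubiquitin fused to a ribosomal protein, fell without overlap, with 5.22, 11.8 and 21.2 CPM at 24 h, against 73.9, 122 and 176 CPM at 6 h (-3.17 ± 0.33, adjusted p = 6.58e-06). Most calls of the cytosolic ribosomal protein list were in the other direction.

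**Figure D3:**
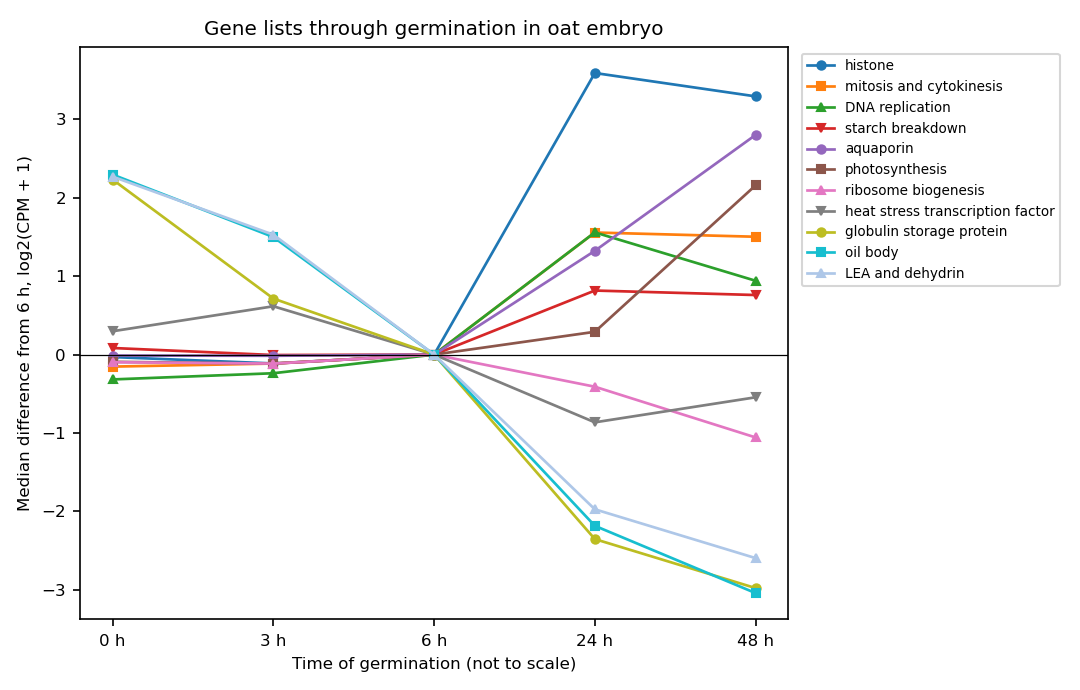
Median over each list of the mean log2(CPM + 1) at 0, 3, 6, 24 and 48 h of germination in embryo libraries minus the mean at 6 h, with 6 libraries at each time. Between 3 h and 6 h no cell division list moves by as much as 1, and at 24 h the histone median stands at 3.59.

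In the time course of embryo libraries, on the log2(CPM + 1) scale, the cell division lists stayed near their 6 h level before 6 h. The median histone gene stood at -0.03 at 0 h, -0.11 at 3 h, 3.59 at 24 h and 3.29 at 48 h relative to 6 h. The dry-seed lists were already falling before 6 h, with a LEA median of 2.27 at 0 h, 1.53 at 3 h, -1.97 at 24 h and -2.59 at 48 h. Photosynthesis genes had a median of 0.29 at 24 h and 2.16 at 48 h. These times were set beside the comparison as a description and were not tested here.

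Abscisic acid genes fell more often than they rose. Of 21 genes of its synthesis and breakdown 12 fell and 3 rose. The dioxygenase NCED, which commits carotenoids to the hormone, fell in 5 of 8, but NCED1_7Cg0001055, with the highest mean among the genes not called, had 7.31, 9.48 and 13.5 CPM at 24 h, against 8.67, 14 and 22.7 CPM at 6 h (-0.45 ± 0.24, adjusted p = 0.143). The hydroxylases that break the hormone down moved both ways. ABAH1_6Cg0003079 had 1.65, 6 and 7.97 CPM at 24 h, against 20.1, 21.4 and 37.1 CPM at 6 h, and all 24 h libraries lay below (-2.22 ± 0.33, adjusted p = 1.14e-04). ABAH3_1Cg0001753 had 6.11, 9.33 and 12.4 CPM at 24 h, against 0.961, 3.12 and 3.83 CPM at 6 h, and all lay above (1.68 ± 0.29, adjusted p = 3.55e-04). Among dormancy genes MFT2_3Cg0000275, of the MOTHER OF FT family that delays germination in wheat, had 10.4, 18.3 and 20.2 CPM at 24 h, against 21, 49.4 and 85.7 CPM at 6 h, without overlap (-1.63 ± 0.23, adjusted p = 8.27e-05). The list of dormancy and abscisic acid signalling gave 6 higher and 13 lower of 59, both under the background shares. Without CDC Morrison replicate 1 they were 12 higher and 20 lower.

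Gibberellin genes moved both ways. In synthesis 6 of 13 rose and 2 fell (1 without CDC Morrison replicate 1), and none of 8 breakdown genes was called by edgeR, DESeq2 or limma, with 1 lower at an unadjusted p under 0.05 in edgeR. In edgeR 1 breakdown gene was called lower without CDC Morrison replicate 1 at both times or at 6 h, without AC Morgan replicate 2 at 24 h or at 6 h, and when libraries were scaled by total count alone. The count of synthesis genes that rose was 2 or 3 without any 1 of 7 single libraries, among them 3 without AC Morgan replicate 1 and 2 without AC Morgan replicate 2 at 24 h. G3O21_3Cg0000526, a gibberellin 3-oxidase that makes the active hormone, had 0.517, 10.7 and 16.4 CPM at 24 h, against 0.0915, 0.877 and 6.18 CPM at 6 h, with overlap (2.38 ± 0.88, adjusted p = 0.0352), a call lost in 8 of the 12 fits that left out 1 library, among them those without AC Morgan replicate 1, 2 or 3 at 24 h or at 6 h, with changes of 2.01 to 2.79 over the 12 fits. In signalling 3 (15.0%) rose and 6 (30.0%) fell of 20, against 27.7% and 24.3% over all genes tested. GID2_6Ag0001572, the F-box protein that removes DELLA repressors, had 219, 240.1 and 424 CPM at 24 h, against 65.8, 84.2 and 112 CPM at 6 h, without overlap (1.67 ± 0.14, adjusted p = 1.55e-06). GAM1_4Ag0002802, a GAMYB factor that turns on amylase genes in the aleurone, had 32.1, 36.6 and 43.6 CPM at 24 h, against 49.4, 83.6 and 98 CPM at 6 h, with all 24 h libraries below (-1.03 ± 0.15, adjusted p = 1.11e-04). The DELLA gene RHT1_4Ag0001267 had 6.62, 37 and 49.4 CPM at 24 h, against 12.9, 18.9 and 42.3 CPM at 6 h, with overlap (0.34 ± 0.44, adjusted p = 0.535).

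Auxin genes rose in 86 and fell in 33 of 221, and among them Aux/IAA repressors rose in 32 and fell in 2 of 55. Cytokinin genes rose in 30 and fell in 16 of 83. Ethylene synthesis genes rose in 19 and fell in 4 of 32, among them 11 of 16 for ACC oxidase, which forms the gas. ACCO1_6Ag0001755 had 0.4, 1.31 and 11.6 CPM at 24 h, against 0, 0.413 and 0.586 CPM at 6 h, with overlap (3.24 ± 0.80, adjusted p = 0.00418). This gene was not called in AC Morgan alone, at 1.60, nor when every library was thinned to the smallest total, at 2.12. PRR73_5Dg0000065, a pseudo-response regulator of the circadian clock, had 49.1, 56 and 59.8 CPM at 24 h, against 7.66, 10.2 and 14.9 CPM at 6 h, without overlap (2.41 ± 0.17, adjusted p = 3.55e-07).

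Aquaporins, the water channels of plant membranes, rose in 40 and fell in 4 of 67 genes. Of 19 tonoplast members 11 rose and 3 fell. TIP12_4Dg0003343 had 176, 205 and 272 CPM at 24 h, against 7.7, 23.9 and 37.6 CPM at 6 h, without overlap (3.20 ± 0.35, adjusted p = 9.90e-06), and TIP22_7Dg0001865 had 58.9, 246 and 327 CPM at 24 h, against 8.14, 30.8 and 52.4 CPM at 6 h (2.96 ± 0.47, adjusted p = 1.92e-04). TIP31_1Ag0000611, of the TIP3 type known from the storage vacuoles of seeds, had 2.53, 3.72 and 7.73 CPM at 24 h, against 37.9, 146 and 251 CPM at 6 h, in the reverse order and without overlap (-5.03 ± 0.31, adjusted p = 1.87e-07).

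Wall genes rose more often than they fell, with 93 against 11 of 187 for cellulose and xylan, and 108 against 10 of 210 for pectin and arabinogalactan. Without CDC Morrison replicate 1 the lower counts were 16 and 16, and 17 cellulose and xylan genes were lower without it at 24 h alone. CESA1_1Dg0000050, a cellulose synthase, had 226, 261 and 319 CPM at 24 h, against 85.5, 133 and 150.2 CPM at 6 h, without overlap (1.10 ± 0.16, adjusted p = 1.12e-04). Expansins, which loosen walls, moved both ways. Of 29 beta-expansin genes 13 rose and 2 fell, and of 14 alpha-expansin genes 2 rose and 3 fell. Over all genes tested 27.7% rose and 24.3% fell. EXPA4_1Dg0001421, an alpha-expansin, fell without overlap, with 15.6, 19.3 and 31.6 CPM at 24 h, against 55.6, 82.9 and 148 CPM at 6 h (-2.15 ± 0.27, adjusted p = 2.55e-05). In the mixed-linkage glucan list, named for the beta-glucan of cereal walls, 12 rose and 6 fell of 21. The synthase-like CSLF genes rose in 9 and fell in 3 of 15, and all 3 CSLH1 genes fell. CSLH1_2Cg0001868 had 1.09, 2.72 and 4.4 CPM at 24 h, against 11, 33.3 and 65.3 CPM at 6 h, without overlap (-3.45 ± 0.35, adjusted p = 4.57e-06). Both the lichenase and the cultivar values of this list are given with the cultivars below.

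Oxalate oxidase, the germin enzyme that forms hydrogen peroxide in the walls of germinating cereals, rose in all 5 genes. OXO2_4Dg0001563 had 11.7, 22.2 and 43.5 CPM at 24 h, against 0, 0.887 and 1.48 CPM at 6 h, without overlap (4.78 ± 0.47, adjusted p = 3.65e-06), and OXO2_7Cg0001093 had 46.7, 48.5 and 125 CPM at 24 h, against 1.72, 6.67 and 18.9 CPM at 6 h (3.04 ± 0.42, adjusted p = 6.36e-05). The catalase CATA1_7Dg0002783, which removes peroxide, had 557, 654 and 970.1 CPM at 24 h, against 183, 357 and 508 CPM at 6 h, also without overlap (1.10 ± 0.16, adjusted p = 1.12e-04). Of 143 photosynthesis genes 45 (31.5%) rose and 5 (3.5%) fell, against 27.7% and 24.3% over all genes tested. The count that rose was 74 without AC Morgan replicate 2 at 6 h, and 28 or 25 without CDC Morrison replicate 2 or 3 at 24 h. In chlorophyll synthesis HEM11_1Dg0000639, a glutamyl-tRNA reductase, had 43.4, 49.4 and 52.3 CPM at 24 h, against 78.9, 83.7 and 90.4 CPM at 6 h, and GSA_7Ag0001638, the enzyme of the next step, had 22.9, 36.2 and 39.2 CPM at 24 h, against 7.36, 10.4 and 15.1 CPM at 6 h. Neither gene's groups overlapped, and the changes were opposite (-0.79 ± 0.11, adjusted p = 6.85e-05 for the first and 1.64 ± 0.20, adjusted p = 2.26e-05 for the second).

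Among transcription factors of the embryo and meristem 45 rose and 32 fell of 150. These shares, 30.0% and 21.3%, were close to the 27.7% and 24.3% over all genes tested. HOX29_3Ag0000804, a homeodomain factor, had 41.4, 45.6 and 74.7 CPM at 24 h, against 7.8, 11.2 and 19.7 CPM at 6 h, without overlap (2.03 ± 0.21, adjusted p = 5.16e-06). WOX11_6Ag0002914, whose rice counterpart acts in crown root formation, had 12.3, 26 and 37.3 CPM at 24 h, against 61, 86.4 and 114 CPM at 6 h, in the reverse order (-1.85 ± 0.20, adjusted p = 9.32e-06). The growth-regulating factor GRF6_4Ag0001381 had 4.24, 17.5 and 20.7 CPM at 24 h, against 29.2, 54.4 and 69.1 CPM at 6 h, also lower without overlap (-1.69 ± 0.29, adjusted p = 2.97e-04). Of 90 WRKY genes, a family of stress and dormancy regulators, 19 (21.1%) rose and 25 (27.8%) fell, against 27.7% and 24.3% over all genes tested. The count that rose was 11 without CDC Morrison replicate 3 at 24 h and 12 without AC Morgan replicate 2 or 3 at 24 h or replicate 3 at 6 h.

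The change differed between the cultivars in 1257 of 57771 genes (2.18%), tested as the change in CDC Morrison minus the change in AC Morgan. The difference was positive in 680 genes (1.18%) and negative in 577 (0.999%). Within each cultivar 12522 genes rose and 9307 fell in CDC Morrison, against 13249 and 11714 in AC Morgan, and 15194 genes were called in both with the same sign and 169 with opposite signs. The count of differences depended on single libraries. It was 7772 without CDC Morrison replicate 1 at both times, 4120 positive and 3652 negative, and 123 without AC Morgan replicate 3 at 24 h. It was 144, of them 40 positive, when every library was thinned to the smallest total.

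Part of the MCM helicase genes rose less in CDC Morrison, and their summed 6 h level was higher there. Among MCM2 to MCM7 genes the change differed in 9 of 20, all with a smaller rise in CDC Morrison, and the median log2 fold change was 2.56 in CDC Morrison and 4.96 in AC Morgan. Their summed level was 3177 to 3370 CPM at 24 h, against 376 to 695 CPM at 6 h in CDC Morrison. In AC Morgan it was 3321 to 3464 CPM at 24 h, against 69.0 to 191 CPM at 6 h. The cultivars thus did not overlap at 6 h. MCM2_4Ag0000090 had 331 ± 9.11 CPM at 24 h, against 43.1 ± 8.98 CPM at 6 h in CDC Morrison, and 410.1 ± 26.2 CPM at 24 h, against 10.1 ± 5.32 CPM at 6 h in AC Morgan (mean ± SD, n = 3). The difference was -2.37 ± 0.42, adjusted p = 0.0207, and it was called in 5 of the 12 fits that left out 1 library. The count of MCM genes that differed was 1 without AC Morgan replicate 1 at 24 h, 18 without AC Morgan replicate 2 at 6 h and 18 without CDC Morrison replicate 1, and none was positive in any of these fits. Over the DNA replication list 22 of 185 genes differed, all negative, where the background is 0.999% negative. This count was 4 without AC Morgan replicate 2 at 24 h, 45 without AC Morgan replicate 2 at 6 h, and 68 without CDC Morrison replicate 1, where 5 were positive.

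Over both cultivars lichenase, which hydrolyses mixed-linkage glucan, rose in all 3 genes. All 3 had a smaller change in CDC Morrison, with median log2 fold changes of 0.31 in CDC Morrison and 3.20 in AC Morgan. All 3 were called in each of the 12 fits that left out 1 library. The summed level in CDC Morrison was 261 to 455 CPM at 24 h, against 201 to 345 CPM at 6 h, so that the times overlapped. GUB2_1Ag0002790 had 104 ± 24.8 CPM at 24 h, against 70.9 ± 19.5 CPM at 6 h in CDC Morrison, and 96.7 ± 5.78 CPM at 24 h, against 6.01 ± 1.72 CPM at 6 h in AC Morgan (mean ± SD, n = 3). The difference was -3.47 ± 0.39, adjusted p = 0.00585, and the AC Morgan libraries at 6 h were lower than the CDC Morrison libraries at 6 h. In CDC Morrison alone GUB2_1Ag0002790 changed by 0.52 and was not called. CBP3_6Cg0001292, a serine carboxypeptidase known from germinating barley, had 162 ± 25.7 CPM at 24 h, against 125 ± 10.6 CPM at 6 h in CDC Morrison, and 139.7 ± 9.41 CPM at 24 h, against 18.9 ± 0.295 CPM at 6 h in AC Morgan, a difference of -2.51 ± 0.24, adjusted p = 0.00234. Its change in CDC Morrison alone was 0.35 and was not called. Of auxin genes 17 differed with a negative and 1 with a positive sign, and 12 of the negative ones were auxin response factors. The negative count was 3 without AC Morgan replicate 3 at 24 h and 56 without CDC Morrison replicate 1.

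Single genes showed other forms of difference. Those from WSD11 to RTNLQ below were called in all 12 fits that left out 1 library, but after thinning to the smallest library PNSB3 (a difference of 1.69) and PAPS3 (2.44) were not. WSD11_3Ag0000319, an enzyme of wax ester synthesis, had 16.4 ± 1.39 CPM at 24 h, against 9.33 ± 2.58 CPM at 6 h in CDC Morrison, and 25.3 ± 1.2 CPM at 24 h, against 1.31 ± 0.161 CPM at 6 h in AC Morgan (-3.44 ± 0.33, adjusted p = 0.00234). Its change in CDC Morrison alone was 0.78 and was not called. LNG1_6Ag0002422 and LNG1_2Cg0000337, matched to the LONGIFOLIA protein that promotes cell elongation in Arabidopsis, had differences of -3.16 ± 0.33, adjusted p = 0.00357 and -4.33 ± 0.45, adjusted p = 0.00357. PNSB3_6Ag0001794, a subunit of the plastid NADH dehydrogenase-like complex, fell further in AC Morgan, with 1.09 ± 0.419 CPM at 24 h, against 5.44 ± 0.712 CPM at 6 h in CDC Morrison, and 0.562 ± 0.201 CPM at 24 h, against 33.7 ± 2.39 CPM at 6 h in AC Morgan (3.46 ± 0.42, adjusted p = 0.00801). PAPS3_6Ag0002889, a poly(A) polymerase, also fell further there (2.24 ± 0.31, adjusted p = 0.0103). The largest difference of those named was that of RTNLQ_7Dg0001838, a reticulon-like protein, with 0.85 ± 0.214 CPM at 24 h, against 0 ± 0 CPM at 6 h in CDC Morrison, and 8.48 ± 1.41 CPM at 24 h, against 20.8 ± 3.24 CPM at 6 h in AC Morgan (8.05 ± 0.66, adjusted p = 0.00234). No CDC Morrison library had a read of it at 6 h, so that the size of this fitted difference depends on the prior count and is no measured fold. Its standard error depends on the prior count as well.

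Of the 106 genes described 13 differed between the cultivars, against 2.18% of all genes tested. Part of the 13 were named for their small p in this test, and 4 were described above with the time comparison. TPS1_1Ag0001750 had 83.6 ± 5.25 CPM at 24 h, against 63.2 ± 8.76 CPM at 6 h in CDC Morrison, and 84.6 ± 8.63 CPM at 24 h, against 21.2 ± 3.45 CPM at 6 h in AC Morgan, a difference of -1.59 ± 0.25, adjusted p = 0.015, which was called in 11 of the 12 fits and lost without AC Morgan replicate 3 at 24 h. In CDC Morrison alone its change was 0.39 and was not called. RFS1_7Ag0001471 differed by -1.73 ± 0.30, adjusted p = 0.0203 and VPE1_6Cg0003323 by 1.92 ± 0.36, adjusted p = 0.0245, each called in 6 of the 12 fits. In CDC Morrison alone VPE1_6Cg0003323 changed by -0.86 and was not called. EXPA4_1Dg0001421 differed by -1.41 ± 0.33, adjusted p = 0.0473 and was called in 2 of the 12 fits.

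**Figure D4:**
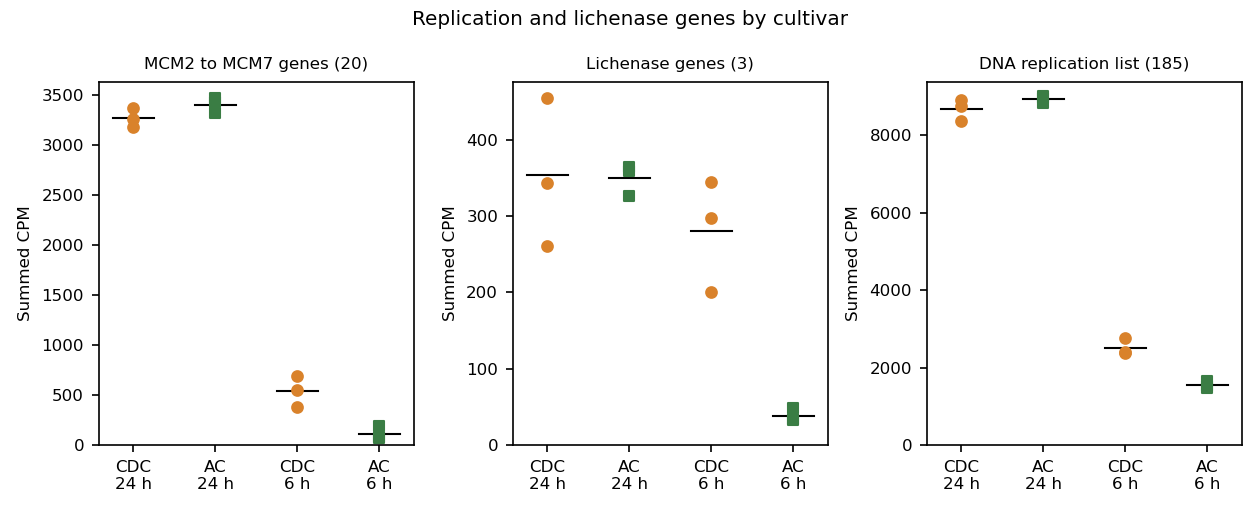
Summed CPM of the MCM2 to MCM7 genes, the lichenase genes and the DNA replication list in each embryo library at 24 h (left) and 6 h (right), for CDC Morrison (CDC) and AC Morgan (AC), each point 1 library and each line the mean of 3. The MCM2 to MCM7 sums of CDC Morrison lie above those of AC Morgan at 6 h and close to them at 24 h.

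The change of 24 h over 6 h in the embryo was set against that in the endosperm of the same grains' cultivars and times, in a fit over 24 libraries. It differed in 18346 of 59296 genes (30.9%), with 8126 (13.7%) where the embryo's change was higher and 10220 (17.2%) where it was lower. When libraries were scaled by total count alone the same test gave 4376 higher and 21203 lower, so directions are given only for lists and families that kept theirs under every scaling tried. The difference was positive for 124 histone genes and negative for 2. It was positive for 158 and negative for 21 mitosis genes. In DNA replication 77 were positive and 11 negative, but of the 20 MCM2 to MCM7 genes edgeR called 0 in either direction. None of these was past an unadjusted p of 0.05 in edgeR or called by DESeq2, whereas limma called 17 positive, total count scaling 2 negative, and edgeR 1 negative without CDC Morrison replicate 1. Ribosome biogenesis ran the other way, with 1 positive and 107 negative, as did the oil body list, with 4 positive and 16 negative.

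Among the named genes SM3L3_7Ag0002515, a match to the Arabidopsis DNA repair translocase RAD5B, had 29.9 ± 6.37 CPM at 24 h, against 1.77 ± 0.326 CPM at 6 h in embryo (mean ± SD, n = 6). In endosperm it had 0.833 ± 0.541 CPM at 24 h, against 3.28 ± 2.62 CPM at 6 h. The difference between the tissues' changes was 5.97 ± 0.33, adjusted p = 7.29e-11. Sterol synthesis genes, which supply membrane sterols, differed positively in 23 and negatively in 2 of 34. CAS_2Dg0000798, cycloartenol synthase, had 96.9 ± 32.1 CPM at 24 h, against 18.2 ± 3.93 CPM at 6 h in embryo and 31.2 ± 9.61 CPM at 24 h, against 55.6 ± 14.1 CPM at 6 h in endosperm (3.29 ± 0.20, adjusted p = 1.59e-10). The squalene monooxygenase SQE1_5Ag0000187 of the step before differed by 3.18 ± 0.19, adjusted p = 1.34e-10. The peroxygenase PXG5_2Dg0000162 had 1.72 ± 0.259 CPM at 24 h, against 7.92 ± 2.5 CPM at 6 h in endosperm and differed by 5.40 ± 0.26, adjusted p = 5.28e-12. CDA7L_6Ag0000674, matched to a human cell division cycle-associated protein, differed by 3.73 ± 0.22, adjusted p = 1.34e-10.

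Genes with a lower change in the embryo included GAM1_4Ag0002802, the GAMYB factor described above, with 202 ± 64.5 CPM at 24 h, against 52.5 ± 20.2 CPM at 6 h in endosperm (-2.95 ± 0.19, adjusted p = 3.80e-10). SCP42_4Dg0001149, a serine carboxypeptidase, had 350.4 ± 201 CPM at 24 h, against 242 ± 149.8 CPM at 6 h in embryo and 1753 ± 744 CPM at 24 h, against 127 ± 58.5 CPM at 6 h in endosperm (-3.14 ± 0.22, adjusted p = 1.69e-09). CYT1_1Dg0001635, a cysteine proteinase inhibitor known from barley, had 2.48 ± 0.835 CPM at 24 h, against 75.8 ± 40.9 CPM at 6 h in embryo and 165 ± 45.1 CPM at 24 h, against 93.8 ± 9.87 CPM at 6 h in endosperm (-5.56 ± 0.39, adjusted p = 1.79e-09). C3H35_1Dg0000112, a zinc finger protein, and CIPKV_5Ag0000630, a kinase that works with calcineurin B-like calcium sensors, differed by -4.10 ± 0.23, adjusted p = 8.43e-11 and by -4.06 ± 0.29, adjusted p = 1.69e-09. The alpha-amylase gene AMY3B_5Dg0002159 also rose in endosperm. It had 74.9 ± 80.4 CPM at 24 h, against 0.158 ± 0.233 CPM at 6 h there, with a change of 8.84 (adjusted p = 4.14e-07), and the difference between the tissues was -1.17 ± 1.37, adjusted p = 0.562.

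**Figure D5:**
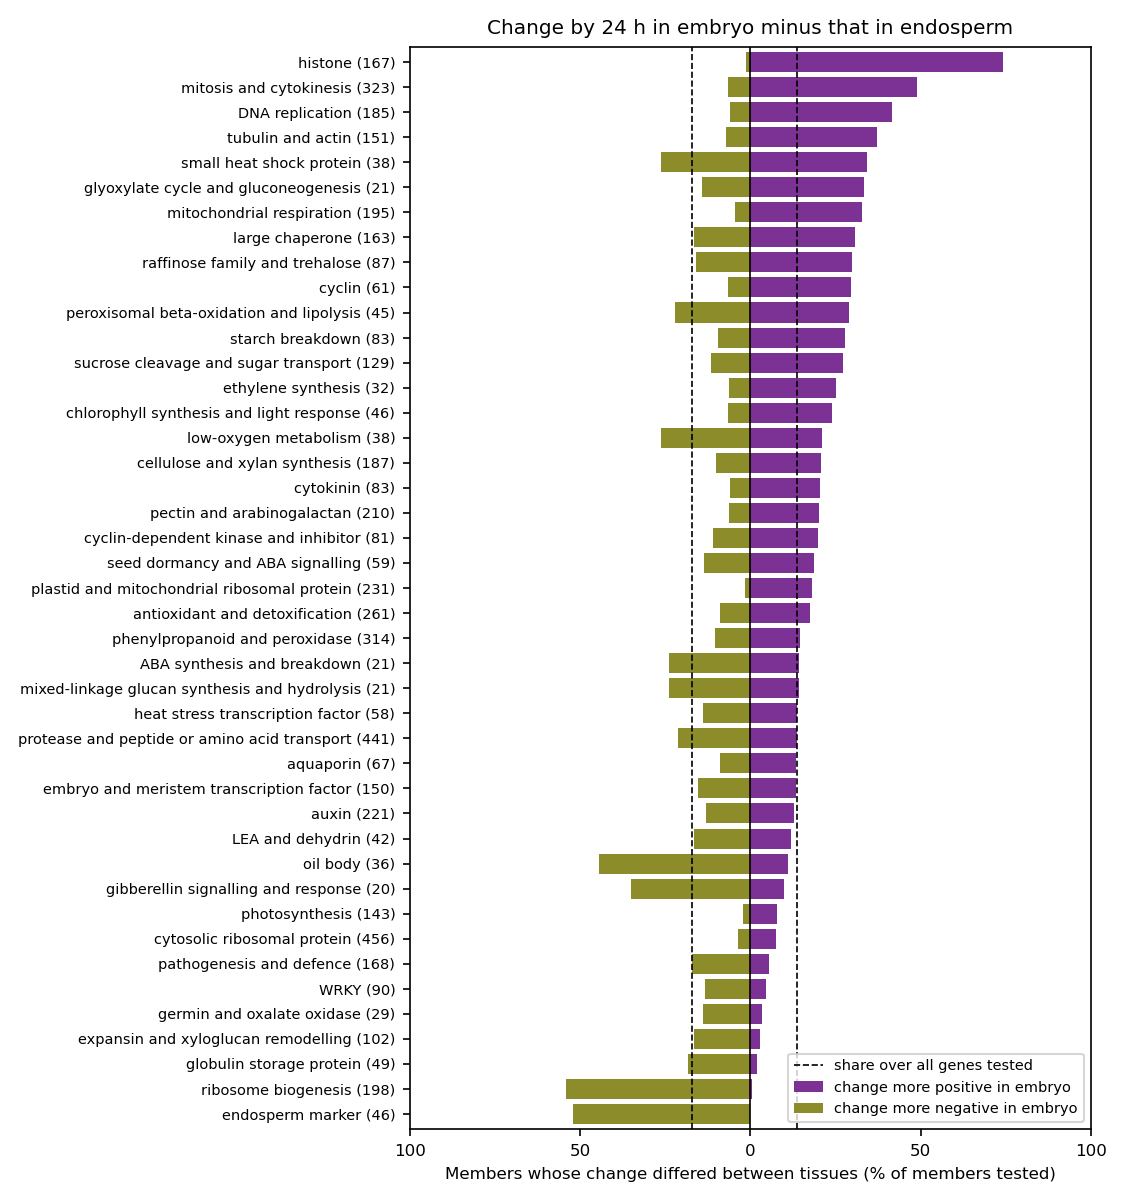
Percent of the genes tested in each list of at least 20 genes whose change of 24 h over 6 h was higher (right) or lower (left) in embryo than in endosperm at an adjusted p under 0.05, with broken lines at the background, 13.7% higher and 17.2% lower. Histone, mitosis and DNA replication genes lie mostly on the right, ribosome biogenesis genes mostly on the left. Libraries were scaled by TMM, and some lists turned when scaled by total count alone. Mitochondrial respiration went from 64 higher and 9 lower to 13 and 26, and large chaperones from 50 and 27 to 21 and 50.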

How the data were processed

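RNA was sequenced as single-end stranded mRNA libraries, and the authors deposited estimated counts per gene for all 60 germination libraries, of which 12 were compared here and 12 endosperm libraries were set beside them. The submitters' processing notes name FastQC, Trim Galore, Bowtie2, Salmon and DESeq2, without saying which step made the germination table. The paper's methods describe quantification against an oat transcriptome for developing grain. Only 38.6% of the estimated counts are whole numbers, and they were rounded. The authors also deposited normalised log2-like values, which were used only as an alternative.

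A gene was kept where 3 or more of the libraries compared held 5 or more counts, which left 57771 of 68572. Libraries were scaled by TMM, and edgeR 4.0.16 (R 4.3.3) fitted cultivar and time by its quasi-likelihood test, and p-values over every gene tested were adjusted by the Benjamini-Hochberg method, with a threshold of 0.05. The cultivar difference was the interaction of cultivar and time in the same libraries, and the tissue difference that of tissue and time over 24 libraries and 59296 genes. The log2 values behind the principal components and the correlations of replicates use a prior count of 2. Fitted log2 fold changes use the default prior count of edgeR, so those of genes near 0 depend on it. CPM are TMM-scaled. Tables and figures were made with Python 3.11.15. The fits were run on simulated data with the same spread for every gene and no library that stood apart. That run therefore cannot show how the fits behave with the replicates that stand apart here.

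Of the genes tested, 44232 carry a protein description, and 46 lists were matched to it by words, with word patterns corrected after the matches had been read. The comparison, the lists and the smaller families were chosen with earlier results of these data known. Genes were named by rule: the 12 largest rises and 12 largest falls among described genes that were called, reached a mean of 20 CPM at the higher time and did not overlap between times, the 3 most abundant called genes of each direction and the most abundant gene not called in each list, and, of described genes reaching 20 CPM in any group, the 5 of each sign with the smallest p for each difference. The rule gave 338 genes, of which 106 are described, and 1 of the others is not reported here. Gene lengths were not used here, so levels are not compared between genes. Near-identical gene copies of the 3 subgenomes can share reads, and how those were divided was not tested. Alternatives were DESeq2 1.42.0, limma 3.58.1 on the deposited log2-like values, other scalings and filters, thinned depth, a replicate block, each cultivar alone, a fit over all 60 libraries, and each library left out in turn.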

Additional observations from a re-analysis of the deposited data

Results flagged for a closer look

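Each gene described and each summed list was examined in the 6 embryo libraries of a time, which made 304 groups, 212 of genes and 92 of lists. In 43 the highest or lowest library lay far from the other 5, past Dixon's 95% critical value for the gap to the nearest library. Chance gives about 1 such group in 20, and the groups share the same 12 libraries. The value of the library that stood apart is given with the value next to it in brackets.

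CDC Morrison replicate 1 at 24 h was the lowest library in 19 of these groups and the highest in 6. Its growth and reserve lists were low, with 2394 CPM for auxin (next 3057), 1781 CPM for glyoxylate cycle and gluconeogenesis (next 2822), 3908 CPM for starch breakdown (next 6920.2), 316 CPM for expansin and xyloglucan remodelling (next 1313) and 317 CPM for mixed-linkage glucan synthesis and hydrolysis (next 595). Lists of the cytoskeleton, water channels and walls were low as well, with 6827 CPM for tubulin and actin (next 14847), 907 CPM for aquaporin (next 2470.2), 1126 CPM for phenylpropanoid and peroxidase (next 2255) and 745 CPM for embryo and meristem transcription factor (next 1297). It was also lowest with 108 CPM for LEA and dehydrin (next 569.9), 114 CPM for heat stress transcription factor (next 173) and 23.8 CPM for gibberellin synthesis (next 55.4). The globulin and root hair lists were high in it, with 866 CPM for globulin storage protein (next 368) and 679 CPM for root hair (next 487). Among genes it was lowest with 11.6 CPM for H2AV2_1Cg0000961 (next 58.3), 268 CPM for TBA1_4Dg0001706 (next 1068), 7.5 CPM for HSFA1_4Ag0002193 (next 14) and 182 CPM for AMY3B_5Dg0002159 (next 424), and with 179 CPM for AMY2_6Cg0000674 (next 751), 30.8 CPM for PCKA_5Ag0000315 (next 223) and 4.24 CPM for GRF6_4Ag0001381 (next 16.7). It was highest with 51.9 CPM for KN7D_4Ag0001265 (next 28.6), 43.9 CPM for SSG2_3Dg0002708 (next 5.67), 191 CPM for CBP3_6Cg0001292 (next 153) and 74.7 CPM for HOX29_3Ag0000804 (next 50.2). The same replicate at 6 h was highest with 546 CPM for root hair (next 384) and 292 CPM for CIPKV_5Ag0000630 (next 175), and lowest with 154 CPM for RFS2_1Dg0000812 (next 532).

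AC Morgan replicate 2 at 6 h was the highest library for 9 genes that were all called higher at 24 h. They were chromatin and spindle genes, with 7.37 CPM for CMT1_7Dg0000847 (next 1.17), 8.22 CPM for CMT3_7Ag0001862 (next 1.42), 1.75 CPM for HMGB6_6Ag0000507 (next 0.137) and 1.17 CPM for H2A1_1Ag0003656 (next 0), and with 2.49 CPM for H2AV2_1Cg0000961 (next 0.123), 0.53 CPM for KN12E_4Cg0000583 (next 0.101) and 0.796 CPM for MA653_3Dg0001437 (next 0.123), and starch genes, with 10.3 CPM for AMY3B_5Dg0002159 (next 1.48) and 68.5 CPM for PHSH_4Dg0002609 (next 41). AC Morgan replicate 3 at 6 h was highest with 2217 CPM for endosperm marker (next 913) and 233 CPM for AVE3_Ung0000156 (next 90.4). CDC Morrison replicate 2 at 24 h was highest with 643 CPM for gibberellin signalling and response (next 504), 36.2 CPM for GLB63_4Dg0001463 (next 17.4) and 424 CPM for GID2_6Ag0001572 (next 293). AC Morgan replicate 2 at 24 h was highest with 11.5 CPM for EM2_1Dg0000996 (next 3.45).

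For 13 of the 106 genes described the change differed between the cultivars at an adjusted p under 0.05 in edgeR's quasi-likelihood test. Over all genes tested the share was 2.18%, and part of the 106 were named for this difference. On the log2 scale the CDC Morrison change minus the AC Morgan change was -2.37 for MCM2_4Ag0000090, -1.73 for RFS1_7Ag0001471, -1.59 for TPS1_1Ag0001750, 1.92 for VPE1_6Cg0003323 and -2.51 for CBP3_6Cg0001292. It was -1.41 for EXPA4_1Dg0001421, -3.47 for GUB2_1Ag0002790, 8.05 for RTNLQ_7Dg0001838 and -3.44 for WSD11_3Ag0000319. It was -3.16 for LNG1_6Ag0002422, 3.46 for PNSB3_6Ag0001794, 2.24 for PAPS3_6Ag0002889 and -4.33 for LNG1_2Cg0000337. By the same test 65 of the 106 differed between the tissues, 25 positive and 40 negative, against 30.9% of all genes tested. The 106 were chosen genes, 10 of them named for a small p in this test, so the count describes the choice. Over all genes the split of signs moved with scaling. For the 10 named for the smallest p the embryo change minus the endosperm change was 5.40 for PXG5_2Dg0000162, -2.95 for GAM1_4Ag0002802, -3.14 for SCP42_4Dg0001149, 5.97 for SM3L3_7Ag0002515 and 3.73 for CDA7L_6Ag0000674. It was 3.18 for SQE1_5Ag0000187, 3.29 for CAS_2Dg0000798, -4.10 for C3H35_1Dg0000112, -4.06 for CIPKV_5Ag0000630 and -5.56 for CYT1_1Dg0001635. Of the 13, 8 were named for their small p in the cultivar test.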

How the results depend on the processing

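The 24 h against 6 h comparison gave 27300 to 32307 genes when each library was left out in turn, and 14373 (8700 higher, 5673 lower) with CDC Morrison alone. With AC Morgan alone, DESeq2, limma, other scalings and filters and thinned depth the count stayed within 1.5 times 30014. Scaling by total count alone gave 14144 higher and 15825 lower.

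The cultivar difference, 1257 genes, was the least stable. It gave 123 (without AC Morgan replicate 3 at 24 h) to 2915 (without CDC Morrison replicate 1 at 24 h) over the fits that left out 1 library, and 7772 without CDC Morrison replicate 1 at both times, an alternative added after seeing the data. It gave 3712 with DESeq2 (1910 positive, 1802 negative), 3416 with limma (1397, 2019), 3739 in 1 fit over all 60 libraries (2367, 1372) and 144 with every library thinned (40, 104). Total count alone gave 372 positive and 728 negative, against 680 and 577. The cause was not tested, although thinning lowers depth by construction.

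The tissue difference, 18346 genes, gave 16370 to 20380 over the fits that left out 1 library and 9626 with thinned libraries (4363, 5263). The split of positive to negative moved with scaling, at 4376 to 21203 by total count, where the median of all genes shifted to -0.64, at 11366 to 9499 with DESeq2 and at 13696 to 9585 with limma.

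In 1 cultivar alone 2 described genes were called with the sign opposite to that of the fit over both cultivars. These were RTNLQ_7Dg0001838 in AC Morgan, with a log2 fold change of -1.27, and LNG1_2Cg0000337 in CDC Morrison, with -1.19. LNG1_6Ag0002422 changed by 2.59 in AC Morgan alone, and its cultivar difference of -3.16 was larger in size than that rise. Replicates with the same number were not shown to come from the same grain lot, and the correlations of their deviations were 0.03, -0.01 and -0.01 in AC Morgan and 0.71, 0.54 and 0.40 in CDC Morrison. With a replicate block the counts were 32256 for the time comparison, 6596 for the cultivar difference and 18178 for the tissue difference. In CDC Morrison replicate 3 at 24 h correlated better with replicate 2 than with replicate 3 at 6 h.

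The limits are those of 2 libraries that stand apart, 3 replicates a group and depth from 5014055 counts upward. AC Morgan replicate 2 at 6 h held more of the genes near 0 in the other libraries of that time. Some list counts moved without CDC Morrison replicate 1, such as globulins, with 42 lower against 16.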

Other observations

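Lists not described above moved in the following way, where 27.7% of all genes tested were higher and 24.3% lower. Plastid and mitochondrial ribosomal proteins were higher in 110 and lower in 11 (17 without CDC Morrison replicate 1) of 231. Sucrose cleavage and sugar transport gave 48 higher and 25 lower of 129. Expansins and xyloglucan-remodelling enzymes gave 33 higher and 15 lower of 102. The phenylpropanoid and peroxidase list, of lignin and related phenolics, gave 132 higher and 40 lower of 314. Antioxidant and detoxification genes gave 93 higher (35.6%) and 59 lower (22.6%) of 261. Pathogenesis and defence genes gave 59 higher (35.1%) and 29 lower (17.3%) of 168. The glyoxylate cycle and gluconeogenesis list gave 11 higher and 2 lower of 21, chlorophyll synthesis and light response 23 higher and 4 lower of 46, and the germin list 9 higher and 3 lower of 29.

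The 3 subgenomes of hexaploid oat were set side by side. In the A subgenome 28.7% of 19105 genes tested were higher and 23.4% lower, in the C subgenome 26.2% of 18512 were higher and 25.6% lower, and in the D subgenome 28.1% of 19720 were higher and 24.1% lower. The differences between subgenomes were not tested.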
